A study of Mus musculus with 34 samples.

Results

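The RNA-seq data of cumulus cells (CCs) were examined for 10 genes, Igsf11, Igsf3, Ppp1r16b, Rest, Foxn3, Strn, Skil, Dse, Alg11 and Ikbip, of 25965 entries in the count table. They were chosen by their fall in mice injected with leptin (16 L) relative to mice injected with saline (16 C), so that fall, with any p-value or call that belongs to it, is a description and no evidence, and the question asked was where the level of the same genes lay in mice that had received neither injection. All 10 passed the filter on low counts. The 34 libraries, 1 per mouse, each came from about 50 CCs taken after superovulation of female C57BL/6J mice that entered the protocols at 8 weeks of age. In the hyperleptinemic model, intraperitoneal injections over 16 days held either saline (16 C, n = 3) or leptin at a daily dose of 100 μg (16 L, n = 5). In the diet-induced obesity (DIO) protocol, mice ate chow diet (CD, 11% of energy from fat) for 4 weeks (4-week CD, n = 5) or 16 weeks (16-week CD, n = 6), or high-fat diet (HFD, 58% of energy from fat) for 4 weeks (4-week HFD, n = 5) or 16 weeks (16-week HFD, n = 7). A further 3 libraries came from mice on the 16-week HFD that the labels call low weight gainers. The diet of the injected mice is not given in the sources used here. No uninjected mice were sampled within the leptin experiment, so injection, age and experiment cannot be told apart when injected and chow-fed mice are compared.

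CCs are specialized granulosa cells that enclose the oocyte, feed it through gap junctions, and after the ovulatory signal loosen and expand in a matrix they secrete. Leptin is the adipocyte hormone that signals energy stores. It binds a cytokine receptor on granulosa and other ovarian cells and acts largely through JAK2 and STAT3. The 10 genes belong to no common pathway. They encode adhesion proteins of the cell surface, scaffolds of signaling complexes, repressors of transcription, and enzymes or membrane proteins of the secretory pathway.

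Library depth ranged from 1104611 counts in 16 L to 13207018 in 16 C, and the fewest reads of any of the 10 genes in any library were 19. Levels are given as CPM, reads scaled to a common library total, with the TMM factor of each library, which corrects for a few abundant genes taking a large share of the reads. This factor was 0.640 to 0.737 in 16 C and 0.894 to 1.32 in 16 L, and the 50 most abundant genes took 30.7% to 34.6% of the reads in 16 C against 13.4% to 19.8% in 16 L. The summed level of 16 markers of cumulus and granulosa cells, all detected in both groups, was 17621 to 43965 CPM in 16 C, 4622 to 11864 CPM in 16 L and 5092 to 8988 CPM in 4-week CD, and most of the difference lay in Gja1, which encodes the gap junction protein connexin 43 (12188 to 37763, 639 to 7817 and 802 to 4220 CPM). The other 15 markers summed to 5433 to 6202 CPM in 16 C, 1013 to 4685 in 16 L and 3874 to 5886 in 4-week CD. In 16 L replicate 18, 12 markers of oviduct epithelium summed to 36499 CPM and 11 markers of theca and stroma to 1980 CPM, against at most 228 and 17.4 CPM in 16 C. The median of the oviduct sum was 1439 CPM in 16 L and 208 CPM in 4-week CD. Red blood cell markers summed to 11273 CPM in 16 L replicate 18 and 1944 CPM in replicate 21, against 1.54 to 30.2 CPM in 16 C, and 14 markers of macrophages and neutrophils to 90.2 to 1540 CPM (median 483) in 16 L and 130 to 816 CPM (median 131) in 16 C. The sum of 12 oocyte markers was at most 27.4 CPM in 16 L and 2.32 CPM in 16 C, but 572 CPM in 4-week HFD replicate 5. The share of mitochondrial reads was 0.335% to 0.628% in 16 C and 0.435% to 4.71% in 16 L. Without replicate 18 the median log2 fold change of the 10 genes was -4.17 in place of -3.84. The part of these differences in the results below was not tested. In such bulk libraries, fewer cells of a type and less RNA per cell cannot be told apart.

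Igsf11 and Igsf3 encode adhesion proteins of the immunoglobulin superfamily. The level of Igsf11 was 1501, 3221 and 2441 CPM in the 3 libraries of 16 C, and 49.8, 108, 52.8, 62.1 and 82.1 CPM in the 5 of 16 L. In 4-week CD it was 153, 114, 77.6, 98.8 and 118 CPM, and in 4-week HFD 150, 110, 125, 127 and 133 CPM. Chow-fed mice at 4 weeks therefore overlapped with 16 L and lay far below every 16 C library. In 16-week CD the lowest, median and highest levels were 62.9, 111 and 1851 CPM, and in 16-week HFD 154, 1137 and 1769 CPM. The highest 16-week CD library, replicate 9, and 2 of 7 libraries of 16-week HFD reached the range of 16 C. The low weight gainers had 550, 512 and 372 CPM. Igsf11 thus had its mean in 16 C (2388 ± 861 CPM, SD, n = 3) 33.6 times that in 16 L (71.0 ± 24.3, n = 5) and 21.3 times that in 4-week CD (112 ± 27.8, n = 5).

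Igsf3 had 8431, 8588 and 8557 CPM in 16 C, a narrow spread, and 319, 243, 324, 417 and 470 CPM in 16 L. The 4-week CD libraries had 588, 705, 865, 471 and 377 CPM. Of the 5, 1 lay within the range of 16 L and the other 4 above it, the nearest by less than 1 CPM. In 16-week CD the levels ran from 587 to 5279 CPM with a median of 1451, in 16-week HFD from 2630 to 6784 with a median of 5685, and in the low weight gainers they were 6072, 6482 and 5588 CPM. No library of the DIO protocol reached the lowest 16 C library for this gene.

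Ppp1r16b, a membrane-anchored regulatory subunit of protein phosphatase 1, and Strn, striatin, a scaffold that holds protein phosphatase 2A and kinases together, are scaffolds of signaling complexes. Ppp1r16b had 704, 1019 and 611 CPM in 16 C and 33.4, 17.9, 27.9, 13.1 and 27.7 CPM in 16 L, with 60.2, 25.6, 23.9, 43.8 and 33.4 CPM in 4-week CD. Of its 16-week CD libraries, replicate 9 had 895 CPM and replicate 13 had 375 CPM, whereas the other 4 had 64.0 to 73.0 CPM. Those 4 lay above all of 16 L and below all of 16 C. Strn had 863, 845 and 720 CPM in 16 C and 81.9, 63.3, 27.1, 33.8 and 42.9 CPM in 16 L. All 5 libraries of 4-week CD (49.1 to 70.5 CPM) and all 5 of 4-week HFD (43.3 to 77.2 CPM) fell within the range of 16 L, whereas 16-week HFD had 286 to 755 CPM with a median of 517.

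Rest, a zinc finger repressor that silences neuronal genes outside neurons, Foxn3, a forkhead repressor, and Skil (SnoN), a SMAD-binding brake on TGF-β signaling, act in the nucleus. Rest had 535, 724 and 550 CPM in 16 C, 72.0, 94.6, 57.2, 61.4 and 59.1 CPM in 16 L, and 70.3, 62.2, 41.8, 77.1 and 53.9 CPM in 4-week CD. For Rest the mean of 4-week CD (61.0 ± 13.8 CPM, n = 5) was below that of 16 L (68.9 ± 15.5, n = 5) by less than either SD. Foxn3 had 803, 401 and 776 CPM in 16 C and 30.8 to 72.2 CPM in 16 L. Its 16-week HFD libraries (246 to 675 CPM, median 552) reached the lowest 16 C library in 5 of 7, the most of any of the 10 genes. Skil had 7638, 10777 and 9896 CPM in 16 C, 269 to 762 CPM in 16 L and 279 to 772 CPM in 4-week CD, and its highest library of the DIO protocol, 16-week CD replicate 9 with 4141 CPM, stayed below all of 16 C. Its 4-week HFD libraries split widely, with 1323 and 1188 CPM in replicates 13 and 14 and 263 to 399 CPM in the other 3.

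Dse, an epimerase that turns chondroitin into dermatan sulfate, Alg11, a mannosyltransferase that builds the lipid-linked precursor of N-glycans, and Ikbip, a membrane protein of the endoplasmic reticulum that binds the kinase IKKβ, belong to the secretory pathway. Dse had 274, 467 and 250 CPM in 16 C, 47.4, 28.9, 19.2, 19.3 and 22.3 CPM in 16 L and 11.3 to 26.4 CPM in 4-week CD. Relative to its 16 L mean (27.4 ± 11.8 CPM, n = 5), its 4-week CD mean (17.2 ± 6.14, n = 5) was the lowest of the 10 genes, with overlapping libraries. Alg11 had 346, 288 and 309 CPM in 16 C and 31.4 to 67.9 CPM in 16 L, the smallest ratio of means, 6.68. The low weight gainers had 294, 362 and 194 CPM of Alg11, and 2 of the 3 lay above the lowest 16 C library. Ikbip had 297, 401 and 317 CPM in 16 C, 28.3 to 59.7 in 16 L, 39.4 to 62.1 in 4-week CD, 58.8 to 90.9 in 4-week HFD and 99.9 to 343 in 16-week HFD.

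**Figure D1:**
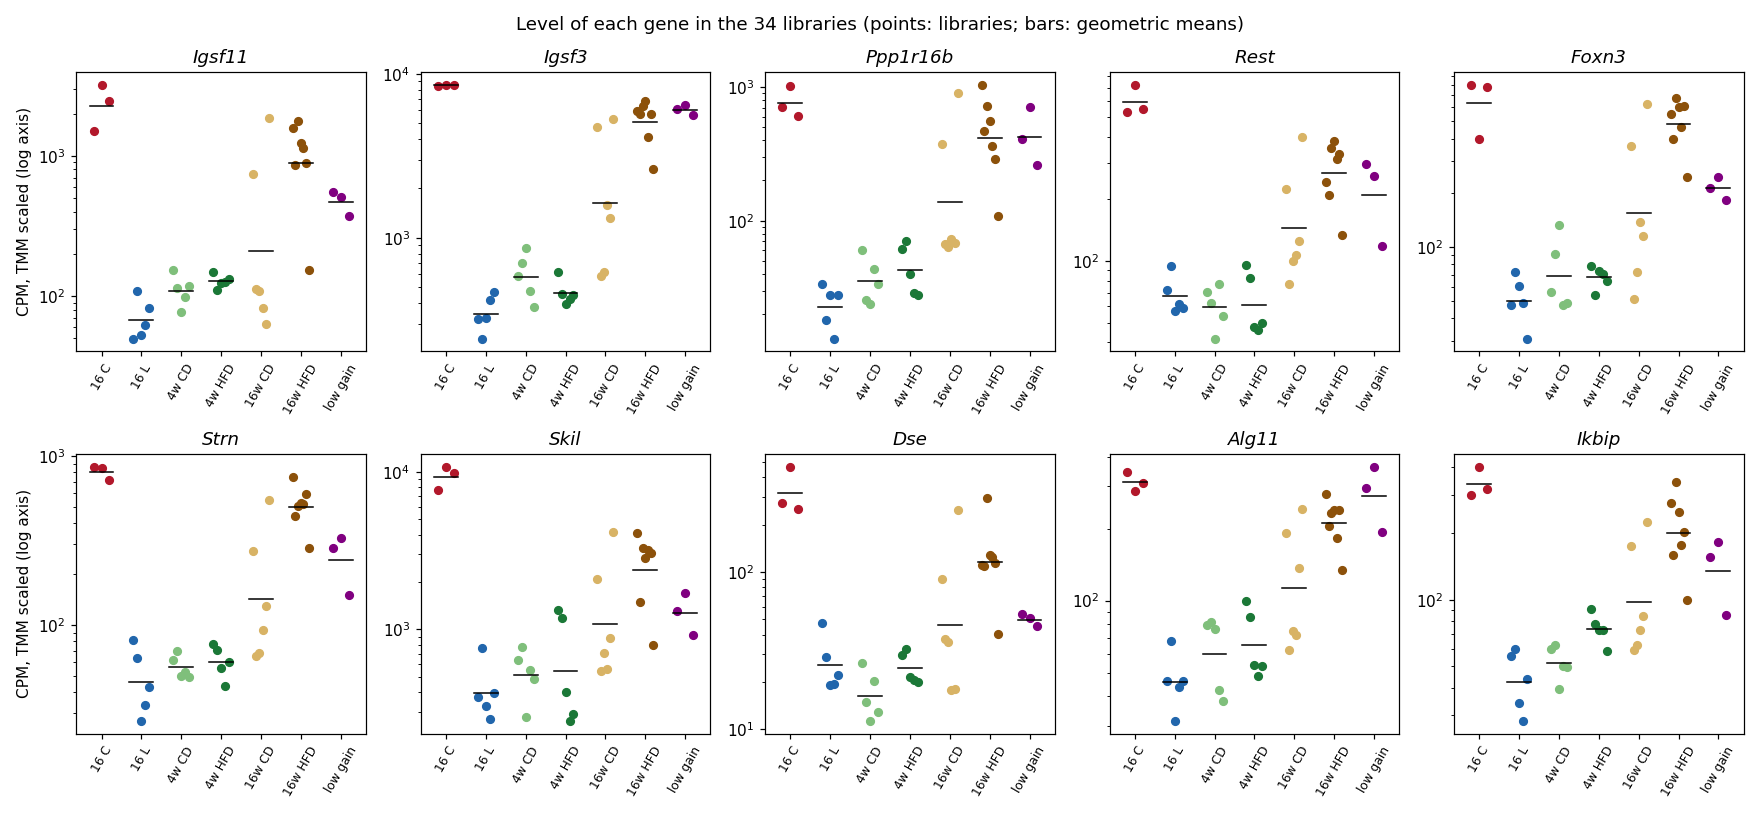
Level of each of the 10 genes in CPM scaled by the TMM factor (log axis) in the 34 libraries by group, with each point a library and each bar the geometric mean of its group. In every panel the mean of 16 C is highest, the libraries of 16 L overlap with those of 4-week CD and, except for Igsf11, with those of 4-week HFD, and 16-week CD splits into 4 lower libraries and replicates 9 and 13.

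In the order of the group means on the log2(CPM + 1) scale, 16 C came first for 10 of 10 genes, followed by 16-week HFD for 7 genes and by the low weight gainers for 3 (Igsf3, Ppp1r16b and Alg11). For Ppp1r16b the mean CPM had the other order, with 507 in 16-week HFD and 460 in the low weight gainers. The libraries of 16 C and of the next group overlapped for 7 genes and were apart for Igsf3, Rest and Skil. The lowest mean was that of 16 L for 8 genes and that of 4-week CD for Rest and Dse. For all 10 genes the lowest and the next lowest group overlapped. The places of 16 C and 16 L in this order use the libraries that chose the genes and are a description only. Shares over all genes are not given for this order and its overlaps, so neither is a result about the 10.

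Where chow lay between leptin and saline was expressed as a position on the log2(CPM + 1) scale, with 0 at the mean of 16 L and 1 at the mean of 16 C. The median position of the 10 genes was 0.106 for 4-week CD, with a range from -0.174 (Dse) to 0.160 (Igsf3). It was 0.109 for 4-week HFD, 0.397 for 16-week CD (0.232 to 0.512), 0.563 for the low weight gainers and 0.773 for 16-week HFD (0.569 to 0.895). In the 4-week groups, then, the genes sat near the level seen after leptin, and in 16-week HFD nearer to the level after saline. The other 518 genes that fell in 16 L gave medians of 0.0442, 0.145, 0.409, 0.635 and 0.770 in the same 5 groups, values close to those of the 10 genes. The 476 genes that rose in 16 L had a median of 0.000867 in 4-week CD and 0.962 in 16-week HFD, again near 16 L in the first and near 16 C in the second.

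**Figure D2:**
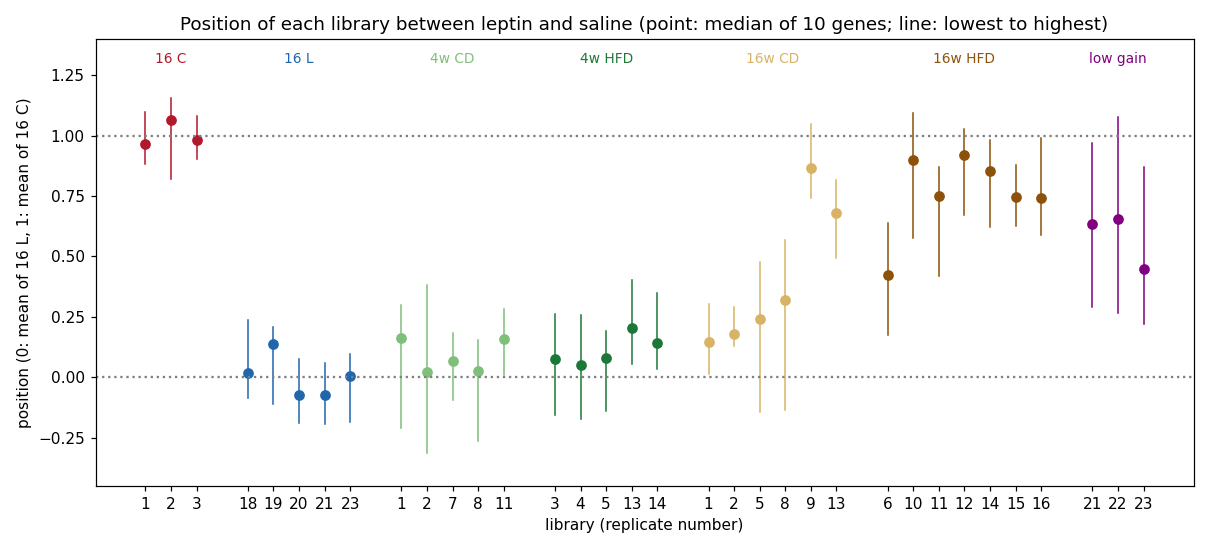
Position of each library between the mean of 16 L (0) and the mean of 16 C (1) on the log2(CPM + 1) scale, with the point at the median of the 10 genes and the line from the lowest to the highest gene, by group and replicate number. All 10 libraries of the 4-week groups have medians between 0.0213 and 0.202, whereas 16-week CD runs from 0.146 to 0.865.

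By library, the median position was 0.0213 to 0.164 in 4-week CD and 0.0485 to 0.202 in 4-week HFD. In 16-week CD it was 0.146, 0.179, 0.241 and 0.317 in replicates 1, 2, 5 and 8, but 0.865 in replicate 9 and 0.679 in replicate 13. In 16-week HFD it was 0.741 to 0.917 in 6 libraries and 0.424 in replicate 6. The mean of 16-week CD therefore averaged libraries at different levels and described few of them.

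The same levels were fitted on the counts with the 2 injected and the 2 chow groups together. The log2 difference of 16 C from 4-week CD was 2.43 to 4.55 across the 10 genes, with a median of 3.95 and standard errors (SE) from 0.423 to 0.876, against a median of -0.13 and quartiles of -1.12 and 0.84 over 12990 genes tested. That of 16 L from 4-week CD was -0.70 (Igsf3, SE 0.557) to 0.75 (Dse, SE 0.586) with a median of -0.33, against a median of 0.08 and quartiles of -0.30 and 0.55 over all genes. Against 16-week CD, 16 C was higher by 1.31 to 2.69 (median 1.86) and 16 L lower by values from -3.48 to -1.36 (median -1.94). Relative to 4-week CD, nearly all of the distance between saline and leptin thus stood on the saline side. Relative to 16-week CD it was divided between both sides. The other 518 genes that fell had medians of 2.26 and 0.03 for 16 C and 16 L against 4-week CD, and of 1.20 and -1.08 against 16-week CD. These differences share the libraries that chose the genes and are a description only.

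**Figure D3:**
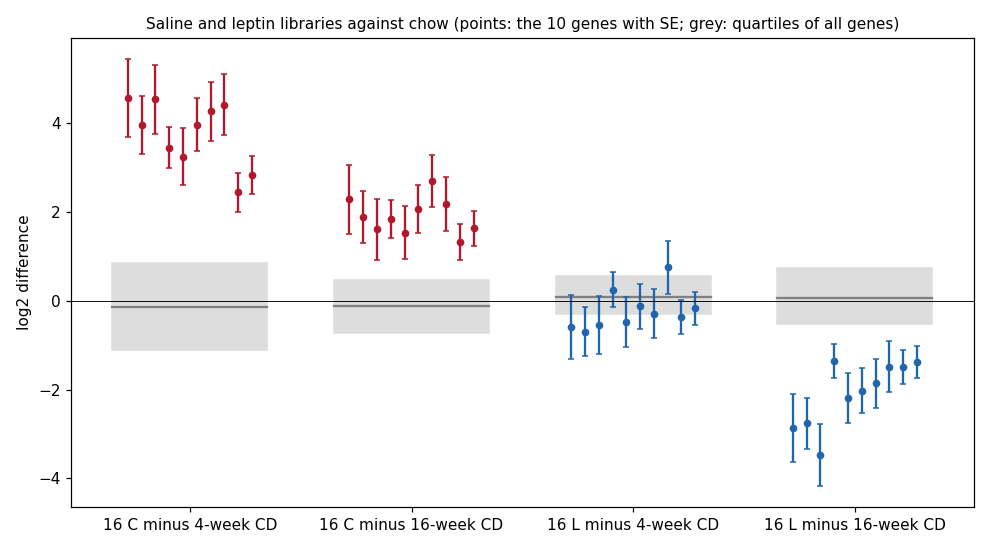
Log2 difference of 16 C (red) and 16 L (blue) from 4-week CD and from 16-week CD for the 10 genes, in the order Igsf11, Igsf3, Ppp1r16b, Rest, Foxn3, Strn, Skil, Dse, Alg11 and Ikbip, with error bars of 1 SE and, in grey, the median and quartiles of all 12990 genes tested. The 10 genes lie from 2.43 to 4.55 above 4-week CD in 16 C and from -0.70 to 0.75 in 16 L.

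For all 10 genes every 16 C library was above every 16 L library, which the choice of the genes fixed, and 10.3% of the 13236 genes that passed the filter had the same pattern. For 10 of 10 genes every 16 C library was also above every 4-week CD library, against 18.6% of all genes. For 7 of 10 it was above every 16-week CD library (5.94% of all genes), the exceptions being Igsf11, Ppp1r16b and Foxn3, in which replicate 9 reached into 16 C. For 4 of 10 (Igsf3, Rest, Skil and Alg11) it was above every 16-week HFD library, against 3.05% of all genes. Counts against 16 L, with 5 libraries, cannot be set beside those of 16 C, with 3, because separation depends on the number of libraries. For 0 of 10 was every 4-week CD library above every 16 L library. This is near the share of 1.3% over all genes and no result about the 10. For 2 of 10, Igsf3 and Ppp1r16b, every 16-week CD library was above every 16 L library, against 2.17% of all genes. All of these counts use 16 C or 16 L libraries, which chose the genes. A share above that of all genes can follow from that choice, and the counts are a description and no evidence. Outside the injected groups, every 16-week HFD library was above every 4-week HFD library for 9 of 10 genes, all but Skil, against 12.3% of all genes. This last separation used no library that chose the genes. The share of mitochondrial reads separated the same groups, with 3.57% to 5.25% in 4-week HFD and 0.786% to 1.53% in 16-week HFD, and its part in the result was not tested.

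The fall itself was fitted on 16 C and 16 L alone. The log2 fold changes were -5.08 (SE 0.485) for Igsf11, -5.02 (SE 0.435) for Ppp1r16b, -4.59 for Igsf3, -4.48 for Skil and -4.02 for Strn, and between -3.67 and -2.74 for Foxn3, Dse, Rest, Ikbip and Alg11. The median over all 11723 genes tested was 0.27. All 10 genes were among the 528 that fell past an adjusted p of 0.05 in edgeR's quasi-likelihood test, 4.5% of the genes tested, a count which the choice of the genes fixed. In the order of falls by p-value, which served that choice, they took ranks 1, 3 to 7 and 10 to 13. The genes in between were H2-T24, Fdps and AC226737.2 (log2 fold changes of -4.07, -3.52 and -6.87), Skil was the last at rank 13, and Tacc1 (-3.73) followed at rank 14.

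Diet and time were compared in libraries that had no part in the choice, with edgeR's quasi-likelihood test and Benjamini-Hochberg adjustment over all genes tested. After 16 weeks of CD relative to 4 weeks of CD, 6 of the 10 genes were higher (Ppp1r16b, Dse, Igsf3, Strn, Rest and Ikbip), against 9.66% of the 11645 genes tested. The log2 fold change of Ppp1r16b was 2.92 (SE 0.749, adjusted p = 0.0208), that of Dse 2.23 (SE 0.644, adjusted p = 0.0312) and that of Rest 1.60 (SE 0.434, adjusted p = 0.0249). The other 4, Igsf11, Foxn3, Skil and Alg11, had positive values of 1.12 to 2.27 with adjusted p from 0.0657 to 0.0695, and the median over the 10 was 1.80 against 0.06 over all genes tested. None of the 10 passed the test (edgeR) when 16-week CD replicates 9 and 13 were both left out, with a median of 0.56, a choice made after their levels were seen. In that fit 205 of all 11796 genes tested were higher. None passed either when 4-week CD replicate 1, 2, 7 or 8 was left out singly. Of all genes, 200 of 11703, 375 of 11920, 254 of 11752 and 211 of 11834 were higher in these fits, in that order. All 10 genes kept an unadjusted p under 0.05 (edgeR) in each of them, with medians of 1.86, 1.95, 1.77 and 1.72. The number passing was 1 without 16-week CD replicate 13 (478 of all 11673 genes tested were higher) and 2 without replicate 9 (578 of 11478). It was 10 without replicate 1 (1755 of 11565) or replicate 2 (1631 of 11374), and 4 without replicate 5 (505 of 11449). It was 5 without replicate 8 (504 of 11667) and 4 without 4-week CD replicate 11 (1233 of 11666). With DESeq2 9 passed (1578 genes higher in all), and with reads scaled by total counts in place of TMM 1 passed (304 genes higher in all).

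In 4-week HFD the 10 genes had levels that overlapped with those of 4-week CD. The log2 fold changes ran from -0.38 (Igsf3, SE 0.269) to 0.52 (Dse, SE 0.268), and 0 of 10 passed the test (edgeR, 1 at an unadjusted p under 0.05, and 0 with DESeq2), against 4.26% of the 11727 genes tested. The widest interval of 2 SE to each side, that of Skil, ran from -0.55 to 1.25. After 16 weeks all 10 genes had positive values in HFD relative to CD, from 0.71 (Rest) to 1.41 (Strn, SE 0.454, adjusted p = 0.0827), and 0 of 10 passed (edgeR, 5 at an unadjusted p under 0.05, and 1 with DESeq2), against 0.0276% of the 10861 genes tested. Without 16-week CD replicate 9, 10 of 10 passed with a median log2 fold change of 1.67. In that fit 2222 of all 10830 genes tested were called, 822 of them higher. Without replicates 9 and 13 together 10 of 10 passed as well, with a median of 2.36, and the number of all genes called rose from 3 to 2915. Both libraries had the highest levels of the 10 genes in 16-week CD and were picked after the levels were seen. Leaving them out thus raises the difference of HFD from CD by construction, and this fit is a description and no evidence. The interaction of diet and time passed for 0 of 10 (edgeR, 2 at an unadjusted p under 0.05, and 0 with DESeq2), against 3.66% of the 12235 genes tested. Without 16-week CD replicate 9 it passed for 4 of 10, and for 1685 of all 12208 genes tested.

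The low weight gainers, which ate the same HFD for 16 weeks, had lower Foxn3 (log2 fold change -1.29, SE 0.296, adjusted p = 0.00711), Strn (-1.08, SE 0.305, adjusted p = 0.0199) and Dse (-1.44, SE 0.442, adjusted p = 0.0345) than 16-week HFD. The share of mitochondrial reads separated these groups too, with 0.337% to 0.614% in the low weight gainers against 0.786% to 1.53%, and its part in the falls was not tested. These 3 of 10 genes compare with 9.93% of the 11258 genes tested that were lower. Igsf11, Skil and Ikbip had values of -1.24, -1.09 and -0.65 with adjusted p of 0.103, 0.0713 and 0.169. Rest and Ppp1r16b had values of -0.38 and -0.21, and Igsf3 and Alg11 of 0.14 and 0.34. In all, 8 of 10 values were below 0, with a median of -0.87 against -0.03 over all genes tested. The 3 falls rested on few animals. Without low weight gainer replicate 23 none passed the test (257 of all 11492 genes tested were lower), and without replicate 21 only 1 did (480 of 11521). Without 16-week HFD replicate 6 the number was 5 (1443 of 11149). With DESeq2 4 passed (1408 genes lower in all).

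**Figure D4:**
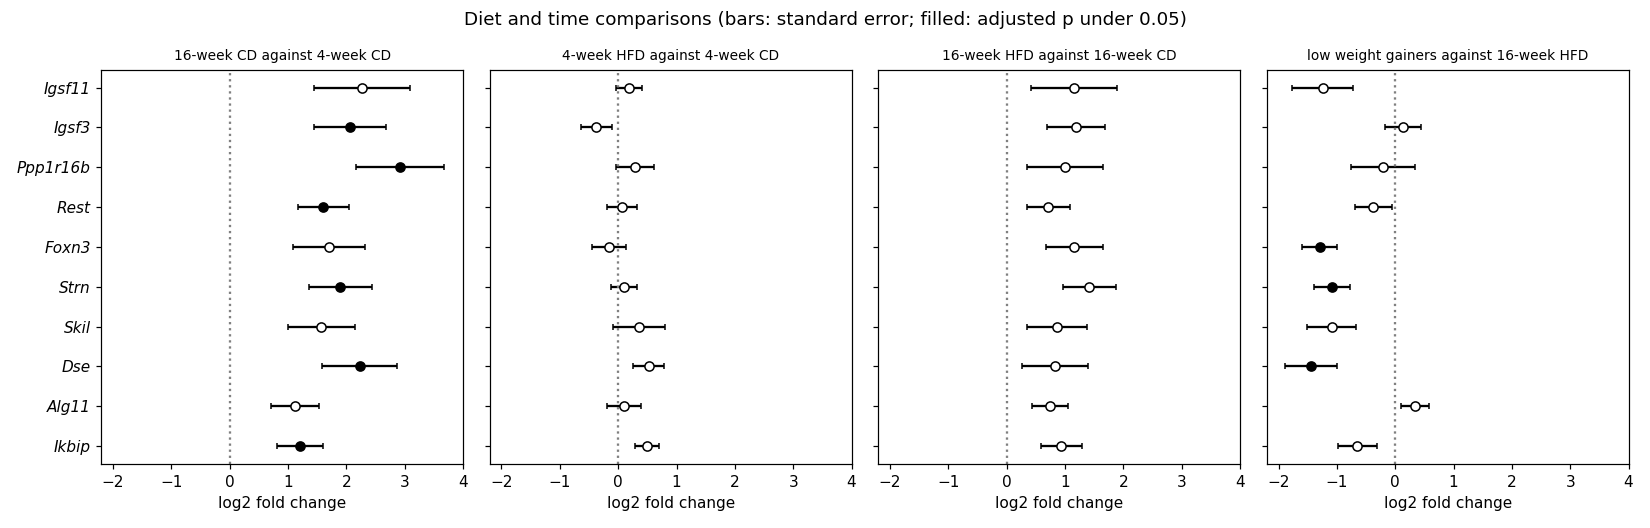
Log2 fold change of the 10 genes in 4 diet and time comparisons, with bars of 1 SE and filled points at an adjusted p under 0.05 (edgeR). The 6 filled genes of the chow comparison and the 3 of the low weight gainers are those described in the text, and no gene is filled in either comparison of HFD with CD.

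The levels of the 10 genes were correlated over the libraries. Over the 34 libraries, Pearson's r between pairs of them was 0.809 to 0.961 with a median of 0.920 on the log2(CPM + 1) scale, where the group differences that chose them enter. Over the 26 libraries of the DIO protocol with the group means removed, it was 0.610 to 0.950 with a median of 0.800, and Strn followed the mean of the other 9 most closely (r = 0.941). By library, the median position ran from 0.146 to 0.865 in 16-week CD and from 0.424 to 0.917 in 16-week HFD, but from 0.0213 to 0.164 in 4-week CD. A few libraries, such as 16-week CD replicates 9 and 13, can therefore carry the r over these 26, and their part was not tested. Pairs of these genes share the composition of each library, described next. The genes outside the 10 whose level was most like their mean were Taok1 (a MAP kinase kinase kinase, r = 0.979), Zc3hav1 (an antiviral zinc finger protein, r = 0.971), Braf (a RAF kinase, r = 0.970), Kdm5b (a histone demethylase, r = 0.970) and Usp22 (a ubiquitin protease, r = 0.969) over 34 libraries. They were Zc3hav1 (r = 0.978), Mtmr2 (a phosphoinositide phosphatase, r = 0.965), Dctn4 (a dynactin subunit, r = 0.965), Actr2 (an actin nucleator subunit, r = 0.961) and Taok1 (r = 0.960) over the 26 with group means removed. Zc3hav1 had 5382 to 7537 CPM in 16 C, 105 to 912 in 16 L and 105 to 200 in 4-week CD. These are descriptions over libraries that share scaling and composition.

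The mean log2 level of the 10 genes also followed measures of the whole library. Over 34 libraries its r was 0.918 with the share of reads in the 50 most abundant genes, -0.902 with the TMM factor, which itself enters the CPM, 0.890 with the first principal component of all genes (39.8% of the variance), -0.619 with the number of genes detected and 0.052 with log2 of the total counts. The 10 genes were thus high where a few transcripts filled much of the library. The part of this in their levels was not tested. With total counts in place of TMM the median position was 0.162 for 4-week CD and 0.436 for 16-week CD, against 0.106 and 0.397 with TMM.

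**Figure D5:**
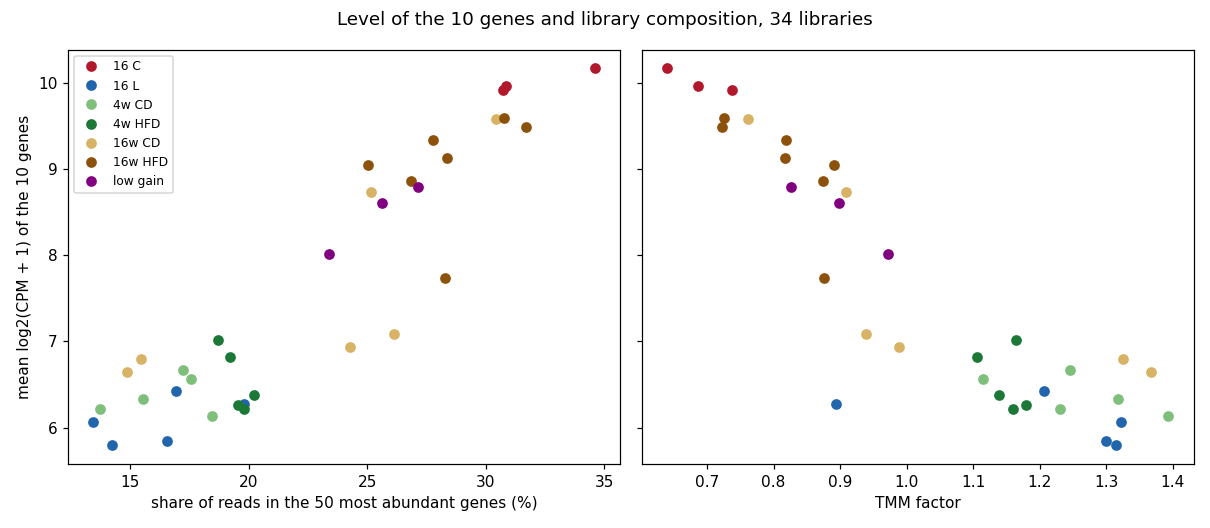
Mean log2(CPM + 1) of the 10 genes in each of the 34 libraries against the share of reads in the 50 most abundant genes (left, %) and against the TMM factor (right), colored by group. The mean of the 10 genes rises with the share (r = 0.918) and falls with the factor (r = -0.902), with 16 C at one end and the 4-week groups and 16 L at the other, except that 16 L replicate 18 lies at a factor of 0.894.

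Genes of the pathways around the 10 passed the test in both directions, with calls that changed when single libraries were left out. Over 10 lists of partners and relatives, 146 genes were tested in 16 L relative to 16 C, of which 11 were higher and 7 lower past the threshold (edgeR). Over all 11723 genes tested, 476 (4.06%) were higher and 528 lower, and with total counts in place of TMM 3652 were higher and 383 lower. Without any 1 of the 3 libraries of 16 C, or without 16 L replicate 23, 0 of the list genes passed (edgeR). Without 16 L replicate 20 only 1 passed, without replicate 21 there were 2 higher and 2 lower, without replicate 19 14 higher and 10 lower, and without replicate 18 43 higher and 24 lower. No list gene called with all 8 libraries passed in more than 4 of these 8 fits, and Vsig10l passed in none. Among 13 members of the REST co-repressor complex, Ctbp1 (1.75, SE 0.320, adjusted p = 0.0194) and Ehmt2 (2.61, adjusted p = 0.0296) were higher and Rcor3 (-2.66, adjusted p = 0.0250) was lower, with a list median of 0.73. Of 20 neuronal genes that REST represses elsewhere, 3 passed the filter on low counts and none passed the test, the nearest being the synaptic vesicle gene Syn1 (3.69 ± 2.31 CPM in 16 L, n = 5, and 0.806 ± 0.830 in 16 C, n = 3, adjusted p = 0.329). Of 24 genes of TGF-β and SMAD signaling tested, 2 were lower, the target Id2 (-3.33, SE 0.634, adjusted p = 0.0230) and the ubiquitin ligase Rnf111 (-2.16, adjusted p = 0.0249), and none was higher.

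Of 16 genes of the striatin complex tested, Ppp2r1a (2.12, adjusted p = 0.0172) and Strn4 (2.45, adjusted p = 0.0379) were higher and Pdcd10 (-1.67, adjusted p = 0.0312) was lower. Strn and its relative Strn4 therefore had opposite signs, and the third striatin, Strn3, had -1.20 (adjusted p = 0.0551). Of 14 phosphatase 1 subunits, only Ppp1r16a, a close relative of Ppp1r16b, passed, and it was higher (2.85, SE 0.446, adjusted p = 0.0131). In chondroitin and dermatan sulfate synthesis (17 tested), Chsy1, which polymerizes the chain, was lower (-3.66, SE 0.596, adjusted p = 0.0142), as was B4galt7 (-1.80, adjusted p = 0.0404), and Fam20b was higher (1.46, adjusted p = 0.0400). Of 19 genes that assemble the dolichol-linked oligosaccharide none passed, the nearest being Alg5 (-0.90, adjusted p = 0.110). Among 15 NF-κB inhibitors, kinases and subunits, Rela (2.03, adjusted p = 0.0395) and Ikbkb (1.53, adjusted p = 0.0478) were higher. Among 12 adhesion molecules of the immunoglobulin superfamily, Jam3 (2.16, adjusted p = 0.0312) and Vsig10l, at 0 CPM in all of 16 C and 2.42 ± 0.538 CPM in 16 L (n = 5), were higher, and among 13 forkhead factors Foxn2 was lower (-3.19, SE 0.522, adjusted p = 0.0145) and Foxj2 higher (2.35, adjusted p = 0.0402). In 16-week CD relative to 4-week CD the same lists gave 9 higher and 17 lower of 147 tested, against 9.66% higher and 6.96% lower over all genes tested.

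The places of the genes were taken from the count table (GRCm38). Igsf11 lies on chromosome 16 (38901471 to 39027159, plus strand), Igsf3 on chromosome 3 (101377125 to 101463060, plus), Ppp1r16b on chromosome 2 (158665398 to 158766334, plus), Rest on chromosome 5 (77265491 to 77286432, plus) and Foxn3 on chromosome 12 (99194980 to 99450111, minus). Strn lies on chromosome 17 (78649913 to 78737196, minus), Skil on chromosome 3 (31095058 to 31122577, plus), Dse on chromosome 10 (34151394 to 34207551, minus), Alg11 on chromosome 8 (22060721 to 22071627, plus) and Ikbip on chromosome 10 (91082940 to 91102607, plus). All 10 are protein-coding in GENCODE M21. Their union of exons was 4493 to 11501 bases with a median of 7850.5, above the median of all genes tested (4408) for 10 of 10, and their gene span was above the median of all genes (22429 bases) for 7 of 10.

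Of 22 entries next to or overlapping the 10 genes, 13 were tested in 16 L relative to 16 C, of which 3 were lower and 0 higher (edgeR), against 4.5% lower and 4.06% higher over all genes tested. Each of the 3 calls was lost in at least 6 of the 8 fits that left out 1 injected library, and without 16 L replicate 18 there were 3 lower and 1 higher. Atp7b, a copper pump, starts on the opposite strand 415 bases from Alg11 and had 18.1 ± 9.65 CPM in 16 C (n = 3) and 0.728 ± 1.07 in 16 L (n = 5), a log2 fold change of -4.37 (SE 0.929, adjusted p = 0.0292). Fam83d, 1758 bases beyond Ppp1r16b on the same strand, had -1.24 (SE 0.330, adjusted p = 0.0478), and Tspyl1 near Dse had -2.55 (SE 0.675, adjusted p = 0.0476). Apaf1, which starts 169 bases from Ikbip on the opposite strand, had 0.96 (SE 0.594, adjusted p = 0.286), opposite in sign to the value of Ikbip. Foxn3 overlaps Gm20682 on its own strand and 3300002A11Rik on the other, and reads shared between them could not be told apart.

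RefSeq promoter windows (GRCm38.p6) were at hand for 7 of the 10 genes, in 8 windows because Ppp1r16b has 2. They were searched on both strands over the 250 bases before the RefSeq start. The windows of Igsf11, Ppp1r16b (both), Strn and Dse lie wholly inside the gene as placed in the count table. Skil, Rest and Alg11 were not analysed here. The palindrome bound by STAT factors, the transcription factors downstream of the leptin receptor, was searched as TTCNNNGAA and occurred in 1 of the 8 windows, that of Foxn3, and in 7.02% of 32851 windows of all genes. The Sp1 box GGGCGG occurred in the windows of 4 genes (32.7% of all), the shortened CRE site TGACG in 3 (17.8%) and the SMAD site CAGACA in 2 (17.1%). The full CRE TGACGTCA (1.55% of all), the SMAD palindrome GTCTAGAC (0.167%), the E-box CACGTG (6.02%) and TATAAA (12.4%) occurred in none. The shortened CRE site lies within the full one. A match is a description of letters and not a site of binding. The windows of Foxn3, which holds the STAT letters, and of Igsf3 and Ikbip, which hold Sp1 boxes and no STAT letters, are printed 5′ to 3′ on the strand of the gene, cut at the start of the gene in the count table, with capitals on the letters of the motifs searched. They lie at chr12:99450112-99450324 (minus strand, 213 bases), chr3:101376875-101377124 (plus strand, 250 bases) and chr10:91082789-91082939 (plus strand, 151 bases).
Foxn3: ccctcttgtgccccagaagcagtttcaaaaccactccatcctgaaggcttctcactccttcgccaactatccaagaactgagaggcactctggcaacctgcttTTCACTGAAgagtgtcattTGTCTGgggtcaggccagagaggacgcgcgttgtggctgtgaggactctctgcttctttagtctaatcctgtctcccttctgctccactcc
Igsf3: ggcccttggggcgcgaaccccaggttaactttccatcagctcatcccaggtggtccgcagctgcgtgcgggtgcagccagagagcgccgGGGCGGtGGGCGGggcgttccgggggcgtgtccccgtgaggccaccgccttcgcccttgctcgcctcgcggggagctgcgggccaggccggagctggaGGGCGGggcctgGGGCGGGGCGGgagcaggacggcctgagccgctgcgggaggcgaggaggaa
Ikbip: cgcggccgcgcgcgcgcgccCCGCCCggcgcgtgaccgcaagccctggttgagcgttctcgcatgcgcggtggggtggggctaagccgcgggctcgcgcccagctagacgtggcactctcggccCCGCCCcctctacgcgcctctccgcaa
In Foxn3 the capitals mark 1 STAT palindrome and 1 SMAD site (reverse strand), in Igsf3 5 Sp1 boxes of which 2 overlap, and in Ikbip 2 of its 3 Sp1 boxes, on the reverse strand. The base composition differed as well, with 53.1% G and C in the piece of Foxn3, 75.6% in that of Igsf3 and 77.5% in that of Ikbip, against a median of 52.4% over all promoter windows of 250 bases.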

How the data were processed

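CCs of 34 mice were sequenced. The authors made Smart-seq2 libraries primed at the poly(A) tail, without molecular identifiers, and deposited 1 table of whole-number read counts per gene without normalization. Per the labels, Trim Galore 0.4.2, HISAT2 2.0.5 and GRCm38 were used, and the counting program is not given in the sources used here. Without a stated strand, reads of overlapping genes on opposite strands cannot be told apart. The paper and the labels differ on the fat content of the diets and on whether the cells came from 1 complex, and the labels were followed.

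Groups and replicate numbers came from the labels. Of 72 pairs of libraries within groups, 0 held the same values, and all differed beyond sampling noise (smallest chi-square per degree of freedom 2.77). Labels name mice but not litters or batches, so p-values measure the spread between these samples. The genes, the pathway lists and the tests were chosen with earlier results of these data known. The genes named besides the 10 are, for each list, up to 3 called genes with the smallest p in 16 L relative to 16 C, or else the nearest to it, the genes next to or overlapping the 10, and the 5 with the highest correlation. H2-T24, Fdps, AC226737.2 and Tacc1 were named for their rank, and Strn3 and 16 L replicate 18, 16-week CD replicates 9 and 13 and 16-week HFD replicate 6 after their values were seen.

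Counts were fitted in R 4.3.3 with edgeR 4.0.16 (TMM, filterByExpr, robust quasi-likelihood F-test, two-sided) on the libraries of each comparison, and called at a Benjamini-Hochberg adjusted p of 0.05. The script was tested on simulated data. Levels are CPM with TMM factors over 34 libraries, with a pseudocount of 1 for log2 values. Alternatives were DESeq2 1.42.0, RLE or total-count scaling, no filter or at least 10 counts per library, a single fit of the 34 libraries, a pseudocount of 0.1, group medians, a replicate block, and leaving out each library. A count of 0 allows up to 3 reads at 95% confidence for counting error only. Older symbols of list genes were matched through RefSeq.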

Additional observations from a re-analysis of the deposited data

Results flagged for a closer look

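Among 50 groups of 4 to 7 libraries examined (10 genes in 5 groups), 1 held a library far from the rest by Dixon's criterion. Igsf11 in 16-week HFD replicate 6 had 154 CPM, below the other 6 libraries, which had 856 to 1769 CPM. Chance alone flags about 1 in 20 groups. The same library had the lowest level of the 16-week HFD group for all 10 genes and a median position of 0.424 between leptin and saline.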

How the results depend on the processing

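The number of all genes called in 16 L was 1004 and became 2381 (DESeq2), 4035 (total counts), 504 (no filter), 4384 (all 34 libraries in one fit) and 30 to 4635 when 1 library was left out, with the highest without 16 L replicate 18. With total counts the higher and lower calls were 3652 and 383 in 16 L (476 and 528 with TMM), 304 and 860 in the chow comparison (1125 and 810), 1585 and 598 for low weight gainers (1212 and 1118), 91 and 571 at 4 weeks of HFD (140 and 359), 187 and 686 in the interaction (213 and 235), and 55 and 1591 in 16-week HFD (1 and 2). In 4-week HFD the 499 genes became 1291 (DESeq2) and 69 (34 libraries), and 8 to 1700 without 1 library, with 0 of the 10 genes throughout. In 16-week HFD the 3 genes became 1130 (DESeq2), 1646 (total counts), 13 (no filter), 0 (10 counts in every library, 1949 at an unadjusted p under 0.05), 1258 (34 libraries), 2915 (without 16-week CD replicates 9 and 13, added after the data were seen), and 1 to 2222 without 1 library. Of the 10 genes, 1 (DESeq2), 1 (total counts), 3 (34 libraries), 10 (without both replicates) and 0 to 10 (without 1 library) passed there. In the low weight gainers 487 genes and 0 of the 10 passed with 34 libraries in one fit, and 596 to 2732 genes and 0 to 5 of the 10 without 1 library. In the chow comparison 1164 genes and 1 of the 10 passed with total counts, and 573 genes and 0 of the 10 without both 16-week CD replicates. With 34 libraries in one fit 2632 genes and 10 of the 10 passed there, and without 1 library 548 to 2961 genes and 0 to 10 of the 10. In the interaction 1160 (DESeq2), 873 (total counts), 157 (34 libraries) and 69 to 1685 genes (without 1 library) passed, with 0 to 4 of the 10. The cause of these changes was not tested.

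The 2 chow groups share the replicate numbers 1, 2 and 8, but the deviations of same-numbered libraries had r of -0.27, -0.03 and -0.24, and 1 of 6 libraries correlated best with its own number, so the number is not taken as a pairing. A replicate block, which rests on those 6 libraries alone, gave 58 genes and 0 of the 10, with log2 values of -0.20 for Igsf11 and -0.24 for Foxn3, which changed sign. Igsf11 also changed sign without both 16-week CD replicates (-0.29).

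Other changes of sign concerned values that passed no test. In 4-week HFD these were Rest (-0.065 with total counts and -0.119 to 0.176 without 1 library), Foxn3 (-0.292 to 0.148 without 1 library), Strn (-0.0141 with total counts), Skil (-0.0185 to 0.569 without 1 library) and Alg11 (-0.000149 with total counts and -0.074 to 0.212 without 1 library). In the low weight gainers Ppp1r16b had 0.0108 with total counts and -0.651 to 0.109 without 1 library.

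The median position of chow stayed at 0.0704 to 0.127 (4-week CD) and 0.373 to 0.420 (16-week CD) without 1 injected library. Group medians in place of means gave 0.0681 and 0.288, total counts 0.162 and 0.436. With total counts the median difference of 16 C from 4-week CD was 2.97 in place of 3.95, and 2 in place of 4 genes had every 16 C library above 16-week HFD, or 5 without 1 library of 16 C. Shares over all genes are not given for these altered settings, and separation is easier for any gene with fewer libraries. The counts of 2 and 5 are therefore a description and no result about these genes. The 3 libraries of 16 C, at most 7 in any group and no molecular identifiers limit all of these values.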
